A study of Mus musculus with 7 samples.

Results

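The genes described here make, keep, guard or remove DNA methylation in the growing mouse oocyte, and they were compared between Mfn1-/- and WT oocytes. They were chosen by name and role: the de novo methyltransferase genes Dnmt3a, Dnmt3b and Dnmt3l, the maintenance genes Dnmt1 and Uhrf1, the regulators Dppa3 and Kdm1b, and the TET dioxygenase genes Tet1, Tet2 and Tet3. All 10 had a row among the 22877 genes of the table.

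Mice were 8 weeks old, and each sequenced library held the RNA of 5 pooled oocytes taken from secondary follicles. The 3 Mfn1-/- libraries came from females in which a floxed Mfn1, the gene of a GTPase that fuses mitochondrial outer membranes, was removed by a Cre transgene under the Zp3 promoter. That promoter is active in growing oocytes, so the granulosa cells around them keep the gene. The 4 WT libraries came from littermates whose exact floxed and Cre alleles are not given in the sources used here, and the strain is labelled C57BL/6J for both groups. The table holds 1 authors' mean of normalized counts per genotype and gene, so no value of a single library, no replicate spread and no depth per library could be given, and none of the differences below was tested.

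Oocytes leave the resting pool with little DNA methylation and gain it while they grow, chiefly over transcribed gene bodies and at maternal imprints. DNMT3A with its catalytically inactive cofactor DNMT3L places these marks, UHRF1 and DNMT1 copy them after replication, and the TET enzymes oxidise 5-methylcytosine on the way to its removal. Many of these transcripts and proteins are stored in the egg and act after fertilization. DNA methylation itself was not measured here.

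The levels of the members spanned several orders of magnitude, and their genotype differences were small beside that span. Levels and ratios of different genes are given on the deposited scale, whose low end behaved much like one set per transcript length (described with the order of the members). Of the 10 members, 8 had a lower mean in Mfn1-/- than in WT oocytes, and 2, Dnmt1 and Tet2, had a higher one. Differences are given below as log2 of the Mfn1-/- mean over the WT mean after 0.1 was added to each, a step that draws the differences of low genes toward 0. Genes were counted where the average of both means was at least 0.1, which 8 members and 13845 genes of the table reached, while Tet1 and Tet2 did not. None of the members was past 2-fold in either direction, where 7.5% of the 13845 genes were past 2-fold higher in Mfn1-/- oocytes and 4.12% past 2-fold lower. A lower mean by any amount was seen in 7 of the 8 counted members and in 39.3% of all counted genes. The differences of these 8 ran from -0.58 to 0.19 with a median of -0.11, beside a median of 0.12 over all counted genes. The expressed genes, 6255 with an average of at least 1, had a median of 0.16, so a gene with equal means lay below the middle of the table. Set against that median, 7 of the 8 counted members lay below it and Dnmt1 lay just above it.

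**Figure D1:**
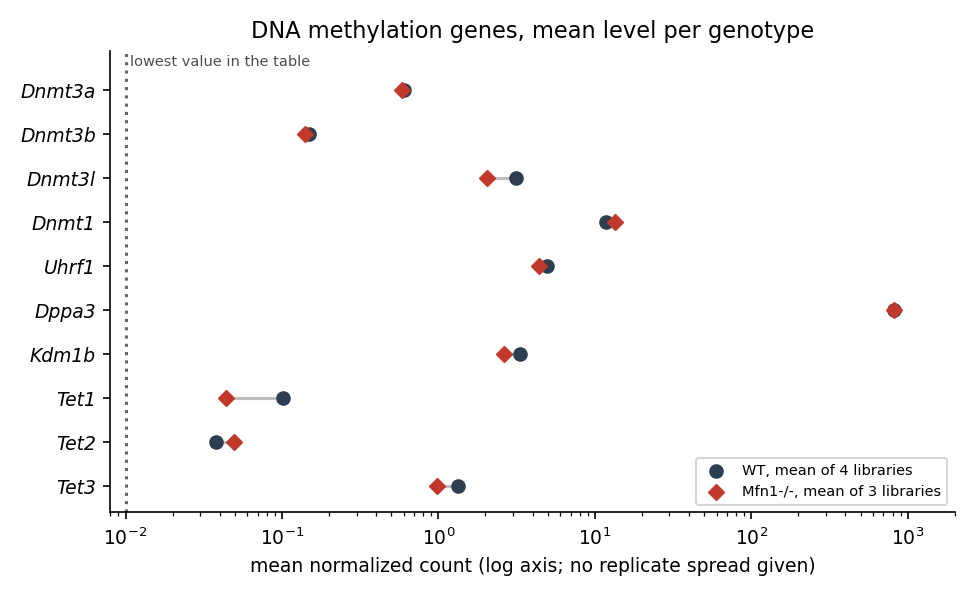
Mean normalized count of each member in WT (circles, authors' mean of 4 libraries) and Mfn1-/- oocytes (diamonds, authors' mean of 3 libraries) on a log axis, with the lowest mean of the table, 0.01, as a dotted line. The 2 markers overlap for Dnmt3a, Dnmt3b and Dppa3, those of Dnmt3l, Kdm1b, Tet3 and Tet1 stand apart with the Mfn1-/- mean lower, and Dppa3 lies far above the rest.

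The deletion and the cell type were checked first. Mfn1 had a mean of 0.0577 in Mfn1-/- oocytes and 0.616 in WT, 10.7-fold lower. All 12 oocyte markers had a row, with WT means from 1.51 to 609 and Mfn1-/- means from 2.74 to 708, and their summed mean was 2176 in Mfn1-/- oocytes and 1965 in WT. Of 12 granulosa cell markers 11 had a row, with a summed mean of 2.29 in Mfn1-/- oocytes and 1.64 in WT, and 3 reached the minimum. The highest of them was Inha, the inhibin alpha subunit, at 1.87 and 0.954, and without it, a sum chosen after the values were seen, the other 10 came to 0.415 in Mfn1-/- oocytes and 0.683 in WT, with 7 of them lower and 3 higher. Cyp19a1, the aromatase gene, was at 0.0846 and 0.193, Nr5a2 at 0.0974 and 0.171, and Hsd17b1 at 0.0412 and 0.152. The defining markers Amh, Foxl2 and Fshr stood at 0.0349, 0.0525 and 0.016 in Mfn1-/- oocytes and at 0.02, 0.0183 and 0.0171 in WT. Of 6 markers of other ovarian and blood cells, 3 had a row and none was above 0.188. The sum of all means was 142576 in Mfn1-/- oocytes and 130160 in WT. In pooled oocytes with whatever cells stayed attached, a smaller share of a cell type and less RNA per cell cannot be told apart. The part that any of these differences had in the values of the members was not tested.

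The promoter letters of the members on which the values turn, the lowest and the highest difference and the TET gene with the highest level, are shown for their CpG content, since CpG is the substrate of these same enzymes. The stretches are the 250 bases before a RefSeq transcription start in build GRCm38.p6, 5′ to 3′ on the strand of the gene, with each CG in capitals, and windows that touch an annotated untranslated region were left out. The count of a gene sums over its starts, so no value below belongs to a single promoter.
Dnmt3l, chr10:78049592-78049841, plus strand, 4 CG: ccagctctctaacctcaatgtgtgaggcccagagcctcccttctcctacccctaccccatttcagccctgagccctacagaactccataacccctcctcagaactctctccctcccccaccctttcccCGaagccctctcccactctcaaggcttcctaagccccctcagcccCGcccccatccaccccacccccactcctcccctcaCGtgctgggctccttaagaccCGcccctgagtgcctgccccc
Dnmt3l, chr10:78055085-78055334, plus strand, 3 CG: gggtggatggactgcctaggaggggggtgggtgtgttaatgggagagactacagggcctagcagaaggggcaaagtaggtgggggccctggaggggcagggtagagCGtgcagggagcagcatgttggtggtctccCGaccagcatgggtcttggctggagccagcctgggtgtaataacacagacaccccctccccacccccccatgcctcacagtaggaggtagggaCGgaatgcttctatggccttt
Dnmt1, chr9:20959889-20960138, minus strand, 2 CG: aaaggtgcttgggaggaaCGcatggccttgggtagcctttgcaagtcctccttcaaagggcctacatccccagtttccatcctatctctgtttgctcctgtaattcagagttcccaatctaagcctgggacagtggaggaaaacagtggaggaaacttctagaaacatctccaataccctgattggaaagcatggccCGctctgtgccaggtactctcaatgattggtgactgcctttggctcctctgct
Dnmt1, chr9:20952980-20953229, minus strand, 7 CG: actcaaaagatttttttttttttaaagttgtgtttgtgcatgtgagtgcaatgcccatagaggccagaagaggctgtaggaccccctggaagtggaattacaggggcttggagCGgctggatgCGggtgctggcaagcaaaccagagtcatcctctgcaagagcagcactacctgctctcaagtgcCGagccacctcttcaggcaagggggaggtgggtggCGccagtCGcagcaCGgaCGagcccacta
Tet3, chr6:83441679-83441928, minus strand, 17 CG: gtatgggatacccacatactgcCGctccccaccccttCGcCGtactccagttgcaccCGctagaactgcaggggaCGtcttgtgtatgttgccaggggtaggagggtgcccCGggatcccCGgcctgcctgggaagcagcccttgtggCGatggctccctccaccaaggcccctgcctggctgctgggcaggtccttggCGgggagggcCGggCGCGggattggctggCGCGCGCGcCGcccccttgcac

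Each window of the RefSeq table runs from 250 bases before to 50 bases after a start, 300 in all, and 9 members had 16 such windows. The median of all 32851 windows was 7 CG, and 12 of the 16 member windows held at least 12 CG, as did 39.6% of all windows. All 3 windows of Dnmt3l were under the median, with 6, 4 and 3 CG. The 3 windows of Dnmt1 differed among themselves, with 2, 12 and 33 CG. Tet3 had 22 CG, Kdm1b 26, Dnmt3b 30 and Tet2 57, the highest of the 16, and the windows of Dnmt3a had 46, 47 and 18. The homeobox core TAATTG, read on both strands, was in 0 of the 16 windows and in 8.00% of all windows. The E-box CANNTG, read on both strands with N as any base, was in 12 of the 16 and in 72.3% of all windows.

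Among the de novo methyltransferase genes, Dnmt3l had a lower mean in Mfn1-/- oocytes while Dnmt3a and Dnmt3b had nearly equal means in both genotypes. Dnmt3a (ENSMUSG00000020661.15, chr12:3806007-3914443, plus strand), the enzyme that methylates the oocyte genome, had a mean of 0.589 in Mfn1-/- oocytes and 0.599 in WT, a log2 difference of -0.02. Dnmt3b (ENSMUSG00000027478.15, chr2:153649450-153687730, plus strand), its relative that acts mainly in the embryo, was lower in level, at 0.14 in Mfn1-/- oocytes and 0.148 in WT, a log2 difference of -0.05. Both pairs of means lay close together, and in both genotypes the level of Dnmt3a was about 4 times that of Dnmt3b, 4.21 in Mfn1-/- oocytes and 4.05 in WT.

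Dnmt3l (ENSMUSG00000000730.13, chr10:78041947-78063622, plus strand), the cofactor that stimulates DNMT3A and without which maternal imprints are not set, had a mean of 2.06 in Mfn1-/- oocytes and 3.14 in WT. The Mfn1-/- mean was 0.656 of the WT mean, a log2 difference of -0.58 and the lowest of the 8 counted members. On the scale with 0.1 added it lay at the 1.5-fold limit, which 9.48% of the counted genes were at or past in the lower direction and which no other counted member reached. Among the 2850 genes whose average was within 2-fold of its own, 8.74% had a more negative difference, and their differences ran from -0.87 at the 5th to 1.16 at the 95th percentile. Dnmt3l thus lay toward the lower side of genes of its level but inside their middle 90%. The level of the cofactor over the enzyme, Dnmt3l over Dnmt3a, was 3.50 in Mfn1-/- oocytes and 5.24 in WT. The summed mean of the 3 genes was 2.79 in Mfn1-/- oocytes and 3.89 in WT, and Dnmt3l made up 73.9% and 80.8% of it.

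The first 1664 bases of Dnmt3l lie over the opposite-strand gene Aire, a regulator of antigen expression in the thymus, which had means of 0.232 and 0.494, a log2 difference of -0.84. This is an overlap of gene spans. No 75-base stretch of the longest coding Dnmt3l transcript, read on both strands, occurs in a transcript of another gene. Smart-Seq2 does not mark strand, so other reads of the shared span cannot be assigned to 1 of these genes from strand. The antisense genes Dnmt3aos, at the table's lowest mean of 0.01 in Mfn1-/- oocytes and 0.101 in WT, and Dnmt3bos, at 0.391 and 0.252, overlap Dnmt3a and Dnmt3b in the same way. Dnmt3bos was above Dnmt3b itself in both genotypes, but no 75-base stretch of the Dnmt3b transcript, read on both strands, occurs in it. The Dnmt3b value is uncertain where its transcript matches another gene. Of the 4246 stretches of 75 bases, the read length, in the Dnmt3b transcript, 328 or 7.72% also occur in Dnmt3c, a methyltransferase gene of the male germ line, while Dnmt3a and Dnmt3l share none with another gene.

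The maintenance genes differed little and in opposite directions. Dnmt1 (ENSMUSG00000004099.16, chr9:20907209-20959888, minus strand), the maintenance methyltransferase, of which oocytes make their own isoform, had a mean of 13.5 in Mfn1-/- oocytes and 11.8 in WT. The Mfn1-/- mean was 1.14 times the WT mean, a log2 difference of 0.19, which is also the median of the 1486 genes within 2-fold of its level. Relative to the median of expressed genes it came to 0.03, so Dnmt1 was in the middle of the table. Uhrf1 (ENSMUSG00000001228.14, chr17:56303321-56323486, plus strand), which binds hemimethylated CpG and brings DNMT1 to it, had a mean of 4.42 in Mfn1-/- oocytes and 4.97 in WT, 0.889 of the WT mean and a log2 difference of -0.17. The level of Dnmt1 over Uhrf1 was 3.05 in Mfn1-/- oocytes and 2.37 in WT.

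The Uhrf1 value is uncertain because of a near copy. Gm5648, on chromosome X (chrX:121334988-121336574), is 98.3% identical to the Uhrf1 transcript over 1590 aligned bases, and 11.3% of the 75-base stretches of Uhrf1 occur in it without a mismatch. It had a mean of 5.73 in Mfn1-/- oocytes and 5.60 in WT, as high as Uhrf1 itself. The sum of both was 10.2 in Mfn1-/- oocytes and 10.6 in WT, so the lower Uhrf1 mean was smaller in proportion once both were added, with a log2 difference of -0.06. How reads that fit several genes were counted is not given in the sources used here.

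Dppa3 was by far the most abundant member and had means in both genotypes that lay within 1% of each other. Dppa3 (ENSMUSG00000046323.8, chr6:122626410-122630272, plus strand), also called Stella or PGC7, keeps UHRF1 out of the oocyte nucleus and shields the maternal genome from loss of methylation after fertilization. It had a mean of 812 in Mfn1-/- oocytes and 816 in WT, a log2 difference of -0.01, and ranked 11 and 10 among the 22877 genes. Only 29 genes had an average within 2-fold of it, and their differences ran from -0.35 at the 5th to 0.51 at the 95th percentile. The pseudogene Dppa3-ps (chrX:37625647-37626097) was as high, with means of 1090 and 1010 and a log2 difference of 0.11. It is 98.2% identical to the Dppa3 transcript over 451 bases with 8 mismatches, and 31 of the 759 stretches of 75 bases in Dppa3 occur in it unaltered, so the split of reads between the pair is uncertain. Their sum was 1902 in Mfn1-/- oocytes and 1826 in WT, 1.04 times the WT sum. The level of Dppa3 over Uhrf1 was 184 in Mfn1-/- oocytes and 164 in WT.

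Kdm1b (ENSMUSG00000038080.17, chr13:47043499-47085279, plus strand), the H3K4 demethylase that clears chromatin for DNMT3A and DNMT3L at many maternal imprints, had a mean of 2.63 in Mfn1-/- oocytes and 3.30 in WT. The Mfn1-/- mean was 0.797 of the WT mean, a log2 difference of -0.32. That was lower than the median of 0.14 of the 2731 genes of its level, of which 16.3% had a more negative difference. Kdm1b overlaps an opposite-strand gene at each end. Tpmt, a thiopurine methyltransferase gene, shares 1239 bases of the locus and had means of 4.48 and 7.10, a log2 difference of -0.65. Dek, a chromatin protein gene, shares 505 bases, had means of 4.89 and 5.53, and holds 8.77% of the 75-base stretches of Kdm1b. No 75-base stretch of the Kdm1b transcript, read on both strands, occurs in Tpmt, so that overlap is one of gene spans. Reads of the stretches shared with Dek, and other reads of the shared spans, cannot be assigned by strand.

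**Figure D2:**
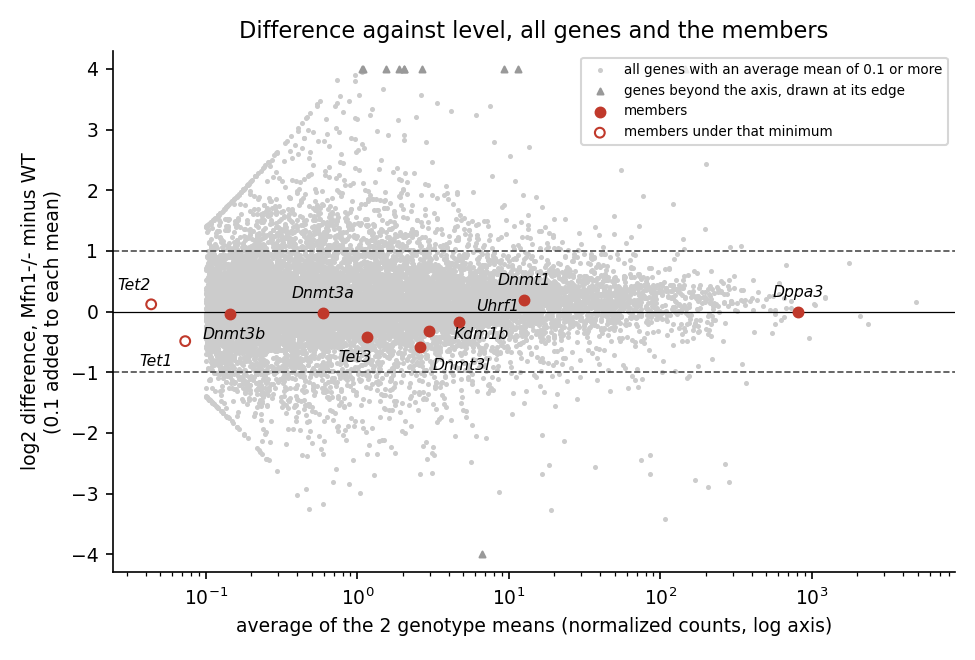
Log2 difference, Mfn1-/- minus WT with 0.1 added to each mean, against the average of both means on a log axis, for the 13845 counted genes (grey) and the members (red, open for the 2 under the minimum), with dashed lines at 2-fold. The members lie between the dashed lines, Dnmt3l is the lowest and Dnmt1 the highest of the 8 counted, and the grey cloud narrows toward the level of Dppa3.

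Of the TET dioxygenase genes, Tet3 held nearly all of the summed level, and it had a lower mean in Mfn1-/- oocytes. Tet3 (ENSMUSG00000034832.15, chr6:83362373-83459084, minus strand), stored in the egg and known for oxidising the paternal genome in the zygote, had a mean of 0.981 in Mfn1-/- oocytes and 1.34 in WT. The Mfn1-/- mean was 0.732 of the WT mean, a log2 difference of -0.41. Among the 3594 genes of its level 14.4% had a more negative difference, with a range from -0.94 at the 5th to 1.37 at the 95th percentile.

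Tet1 (ENSMUSG00000047146.17, chr10:62804570-62908996, minus strand), which acts in primordial germ cells and embryonic stem cells, had a mean of 0.0441 in Mfn1-/- oocytes and 0.102 in WT. Tet2 (ENSMUSG00000040943.12, chr3:133463679-133545139, minus strand), best known from blood cells, had a mean of 0.0495 in Mfn1-/- oocytes and 0.0376 in WT. Both averages were under the minimum, and at this level the size of a difference is set by the constant added. The log2 difference of Tet1 was -0.49 with 0.1 added, -0.08 with 1 added and -1.05 with 0.01 added, and its plain ratio of means was 0.432. That of Tet2 was 0.12 with 0.1 added and turned to -0.04 once the median of expressed genes was subtracted.

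The sum of the 3 TET genes was 1.07 in Mfn1-/- oocytes and 1.48 in WT, 0.726 of the WT sum, and Tet3 made up 91.3% and 90.6% of it. The share of Tet3 was thus nearly equal in both genotypes. The TET sum and the sum of the DNMT3 genes stood in nearly the same proportion to WT, 0.726 and 0.718. Their main genes stood further apart, Tet3 at 0.732 and Dnmt3l at 0.656, while Dnmt3a was at 0.983 and Dnmt3b at 0.946. The level of Dnmt1 over Tet3 was 13.8 in Mfn1-/- oocytes and 8.81 in WT, and that of Dnmt3l over Tet3 was 2.10 and 2.34.

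The order of the members by level was the same in both genotypes from Dppa3 down to Dnmt3b. As deposited, the WT means ran from Dppa3 through Dnmt1, Uhrf1, Kdm1b, Dnmt3l, Tet3, Dnmt3a, Dnmt3b and Tet1 to Tet2, and in Mfn1-/- oocytes Tet2 lay above Tet1. The deposited values are called normalized counts and their scale is not named. The 5th percentile of the WT means was taken after the lowest mean, 0.01, was subtracted and genes at it left out. It was 0.00988 in the shortest 10% of genes and 0.0008 in the longest 10%, or 12.4 times higher. The median transcript of the longest 10% was 16.1 times longer, so with that subtraction the values behaved much like ones already set per length. The comparison without that subtraction was not made. Divided by transcript length once more, Dnmt3l moved above Uhrf1 and Kdm1b in WT oocytes and above Kdm1b in Mfn1-/- oocytes, and the rest of the order stayed as it was. The neighbours Kdm1b and Dnmt3l, at 3.30 and 3.14 in WT oocytes, lay closer to each other than either did to its own Mfn1-/- mean, and whether neighbours differ beyond the spread of libraries could not be told.

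**Figure D3:**
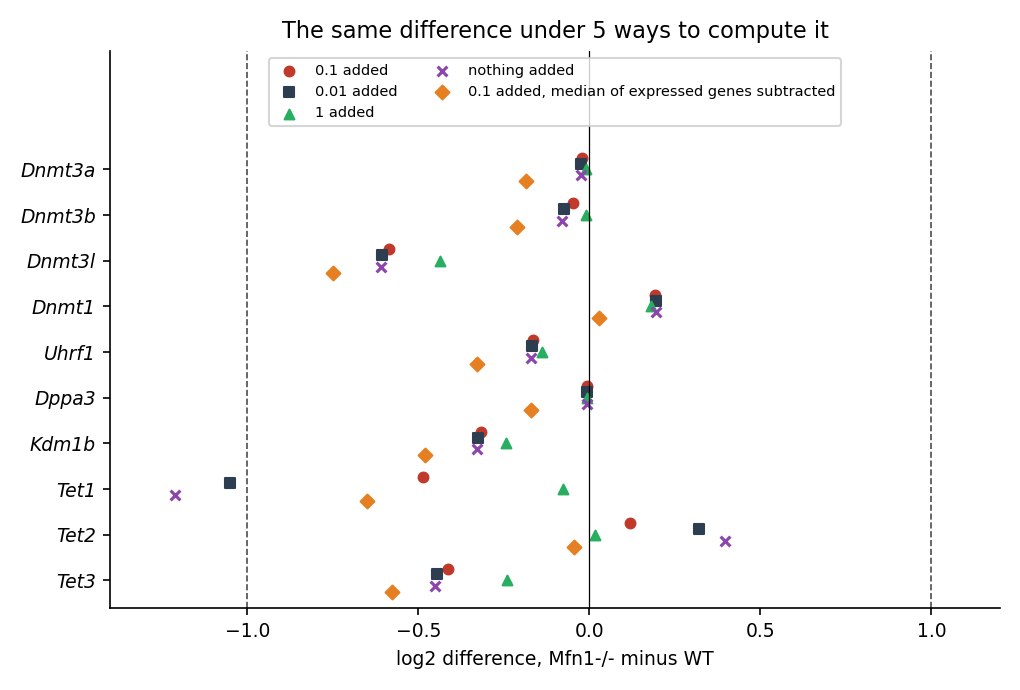
Log2 difference, Mfn1-/- minus WT, of each member with 0.1, 0.01, 1 or nothing added to the means, and with the median of expressed genes subtracted, with dashed lines at 2-fold. Every member with a lower Mfn1-/- mean stays to the left of 0 under all 5, as the arithmetic requires. Tet2 crosses 0, and Tet1 alone passes 2-fold, with 0.01 or nothing added.

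The wider machinery was read in 5 lists of 73 genes, of which 71 had a row and 61 reached the minimum. Of these, 38 had a higher and 23 a lower mean in Mfn1-/- oocytes, 3 were past 2-fold higher and 1 past 2-fold lower, with a median log2 difference of 0.10 beside 0.12 over all counted genes. Of all counted genes 39.3% had a lower mean, the share to read beside the counts of each list below. The lists as a whole were therefore close to the middle of the table.

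The histone enzymes that steer DNA methylation had a median of -0.05, beside 0.12 over all counted genes. Of the 18 counted in this list, 8 were higher and 10 lower. The 2 with the highest level were Eed, the H3K27 methylation scaffold of Polycomb repressive complex 2, at 5.68 in Mfn1-/- oocytes and 5.92 in WT, and Suv39h2, an H3K9 methyltransferase gene, at 3.07 and 3.62. Ehmt2, the H3K9 methyltransferase gene also called G9a, was past 2-fold higher, at 0.464 in Mfn1-/- oocytes and 0.13 in WT, a log2 difference of 1.29. With a pseudocount of 1 that difference was 0.37, inside 2-fold.

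Partners of maintenance and imprint protection had 7 of 11 counted genes higher and 4 lower, a median of 0.05 and none past 2-fold. Zfp57, the zinc finger factor that guards imprints, was high at 66.8 in Mfn1-/- oocytes and 72.1 in WT, and Pcna, the replication clamp, was at 20.5 and 19.8. Of the readers of methylated CpG, 5 of 8 were counted, 3 higher and 2 lower, with a median of 0.31. Mbd3, a subunit of the NuRD complex, was at 9.20 in Mfn1-/- oocytes and 7.06 in WT, and Zbtb33, also called Kaiso, at 0.937 and 1.36.

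The list of demethylation and base excision repair partners had 2 of its 18 counted genes past 2-fold higher and 1 past 2-fold lower, where 7.5% and 4.12% of all counted genes were. It had 12 of 18 counted genes higher and 6 lower with a median of 0.20. Over all counted genes 39.3% were lower and the median was 0.12. Gadd45g was at 0.44 in Mfn1-/- oocytes and 0.112 in WT, a log2 difference of 1.35, and Gadd45a at 2.94 and 1.19, a difference of 1.24. With a pseudocount of 1 these differences were 0.37 and 0.85, both inside 2-fold. Both are known stress-induced genes that have been tied to active demethylation. Neil3, a DNA glycosylase gene, was at 1.48 in Mfn1-/- oocytes and 4.18 in WT, a log2 difference of -1.44, and stayed past 2-fold at -1.06 with a pseudocount of 1. The 2 of this list with the highest level were Apex1, the abasic site endonuclease gene, at 36.3 and 25.3, and Polb, the repair polymerase gene, at 3.08 and 3.01.

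Genes for the supply and recycling of S-adenosylmethionine, the methyl donor, had 8 of 9 counted genes higher and 1 lower, with a median of 0.19 and none past 2-fold. Over all counted genes 39.3% had a lower mean and the median was 0.12. The 1 lower gene of this list was Mat2b, the regulatory subunit of methionine adenosyltransferase. Mat2b was also the most abundant, at 61.3 in Mfn1-/- oocytes and 64.9 in WT. Its catalytic partner Mat2a was at 6.40 and 5.62. With 0.1 added, the wider lists other than the histone enzymes had medians above 0, while the median of the counted members was -0.11. The median of the maintenance partners, 0.05, was still under the 0.12 of all counted genes. Once the median of expressed genes was subtracted, the median of the maintenance partners turned to -0.11 and that of the members was -0.27. The histone enzymes were then at -0.22, the demethylation and S-adenosylmethionine lists each at 0.03 and the methyl-CpG list at 0.15. These medians were not tested against each other.

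**Figure D4:**
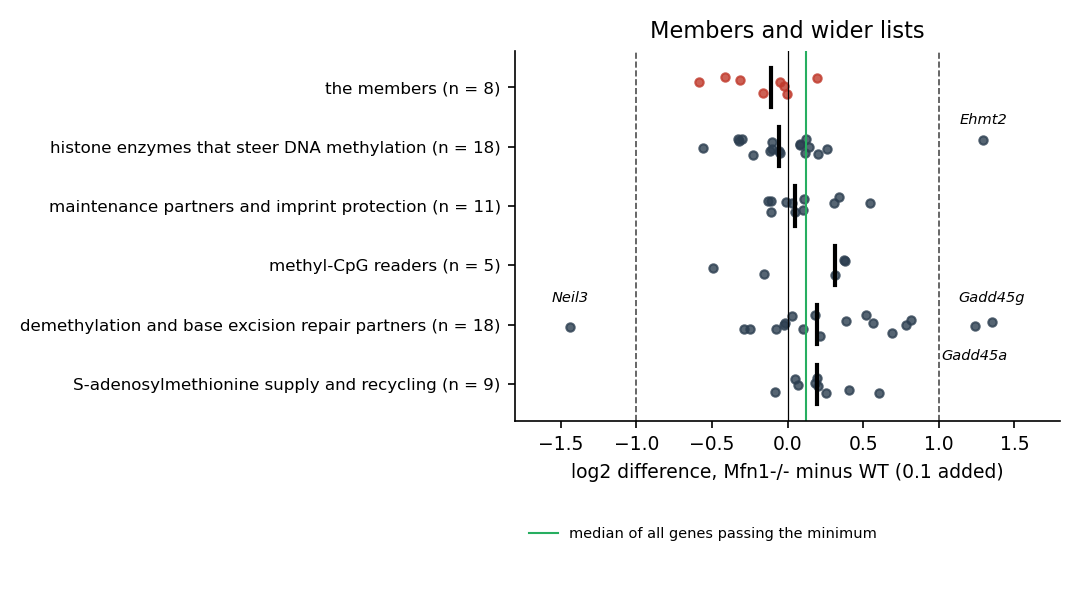
Log2 difference, Mfn1-/- minus WT with 0.1 added, of each counted gene in the members (red) and in the 5 wider lists (dark), with list medians as black bars, the median of all counted genes as a green line and dashed lines at 2-fold. The members sit between -0.58 and 0.19, and the 4 genes outside the dashed lines, Ehmt2, Gadd45g, Gadd45a and Neil3, belong to the wider lists.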

How the data were processed

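Libraries of 5 pooled oocytes were made with Smart-Seq2 and Nextera XT and read as 75 bp pairs. Cutadapt and the FASTX-Toolkit were used by the authors for trimming and filtering, STAR for alignment to GRCm38/mm10 and DESeq2 for their comparison; the annotation and the normalization are not given in the sources used here. The deposited signal is the authors' mean of normalized counts per genotype, with a sum over the 7 libraries that fits 3 Mfn1-/- and 4 WT libraries in 100% of genes to within 1%. The paper's methods give n = 3, and the sample labels, with 4 WT libraries, were followed here. The authors' p-value, FDR, ratio and fold change columns hold their own comparison and were not used. With 1 mean per genotype no test, standard error or depth per library was possible.

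From the means, log2(mean + 0.1) was compared between genotypes in Python 3.11.15 with pandas 2.3.3, for genes whose 2 means averaged at least 0.1, and the percentile of each member was read against genes of like level. The computation was run on simulated data with an assumed spread of libraries and changes larger than those of the members. That run says nothing about the spread in these data or about differences as small as theirs. Gene positions and transcripts came from GENCODE release M21 (GRCm38), near copies from blastn 2.17.0 and exact 75-base matches, promoters from RefSeq (GRCm38.p6). Dppa3 had no promoter entry. The members and lists were chosen with earlier results of these data known. Named were all members, Mfn1, and of each wider list the genes past 2-fold (at most 4) and the 2 with the highest mean. The genes near or overlapping members and the cell type markers named singly were chosen after their values were seen. Alternatives were pseudocounts of 0.01, 1 and none, a minimum of 1 or no minimum, centring on expressed genes, and division by transcript length.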

Additional observations from a re-analysis of the deposited data

How the results depend on the processing

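Of 160 values recomputed under an alternative, 150 shifted by at most 1.5-fold and, for single genes, kept their side of the 2-fold limit, and 10 moved further. Centring takes the same 0.16 from each log2 value, which is under the 1.5-fold limit, and many values were counts that stayed at 0. The 150 is therefore no measure of how firm the differences are. The sign turned in 2 small values, both once centred: Tet2 from 0.12 to -0.04 and the median of the maintenance partners from 0.05 to -0.11. The log2 difference of Tet1 was -1.05 with a pseudocount of 0.01 and -1.21 with none, an alternative chosen after seeing the data, and past 2-fold under both. With the limit lowered to 1.5-fold, 1 member, Dnmt3l, was counted as lower. The other 7 moves were counts of genes past 2-fold higher, which fell to 0 in the histone list with a pseudocount or a minimum of 1 and in the demethylation list to 0 and 1, and ranks of Dnmt3l, Uhrf1 and Kdm1b by length. In the demethylation list that count went from 2 to 3 with a pseudocount of 0.01 or none, as Neil1 crossed the limit. Of the 10 members 8 had a lower value under each pseudocount and 9 once centred. A constant added to both means cannot change a sign, and centring lowers every value, so these counts were no check of direction. The median of the counted members ran from -0.27 (centred) to -0.07 (pseudocount 1). No paired analysis was possible because only 1 mean per genotype was used, and no replicate could be left out. Depth per library is unknown, so how far levels as low as those of Tet1 and Tet2 can be resolved is unknown too.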
